A study of Mus musculus with 12 samples.

Results

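Premalignant hepatocytes labelled as aggregates were compared with premalignant hepatocytes labelled as non-aggregates, to show which genes set the RNA of cell aggregates apart. The comparison uses the 3 arrays labelled aggregate and the 3 labelled non-aggregate, which are 6 of the 12 arrays of the series, and all 6 lie on the same bead chip. Both groups are freshly isolated liver cells of male B6 mice, matched for age, in which HCC (hepatocellular carcinoma) was induced by an injection of diethylnitrosamine (DEN), a carcinogen that hepatocytes activate themselves. The other chip holds 3 arrays of fully malignant HCC and 3 of normal hepatocytes. How the aggregates were separated, the time after DEN and the animals' ages are not given in the sources used here. Whether the replicates came from different mice is not labelled, so a p-value here covers the spread among these arrays alone. In the main fit that spread is estimated over all 12 arrays, the HCC and normal ones included. Precision is limited by the small number of arrays.

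Hepatocellular carcinoma develops in the liver through small lesions of altered hepatocytes that precede a tumour. Such lesions and tumours often make proteins of the fetal liver again, among them alpha-fetoprotein and glypican 3. In the liver, hepatocyte plates lie against sinusoids that are lined by fenestrated endothelium, with Kupffer cells (the resident macrophages) in the lumen and stellate cells (which store vitamin A and can make fibrous matrix) beneath the lining.

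Total RNA was labelled with biotin and read on Illumina bead arrays. Levels are given as normalized log2 signal of a gene's probe, and changes as aggregate minus non-aggregate on the log2 scale with the standard error (SE). Between 16937 and 17903 of 45281 probes were detected on the aggregate arrays, and between 16444 and 17067 on the non-aggregate arrays. The 6 arrays resembled each other closely, with Pearson r over genes between 0.9694 and 0.9910. Each of the 24 tested hepatocyte genes was detected on at least 1 array of each group. Only genes that passed the detection filter were tested, and their detection does not measure the purity of the hepatocytes. Aggregate and non-aggregate arrays alternate along the chip, and no chip position holds both groups.

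Of 10641 genes tested, 81 (0.761%) rose in aggregates and 0 (0%) fell at an adjusted p below 0.05 (limma over all 12 arrays, Benjamini-Hochberg). Without adjustment, at p below 0.05, 609 genes lay higher and 155 lay lower, and the median change over all genes was -0.03. Rises of called genes ran from 0.76 to 3.40 with a median of 1.49, and 71 of the 81 were over 1, which is a doubling. For each of the 81 genes all 3 aggregates lay above all 3 non-aggregates, an arrangement that 1005 of all genes (9.44%) had, with 866 (8.14%) in the opposite arrangement. The number of calls depends on single arrays. It was 39, 138 and 19 without aggregate replicate 1, 2 or 3, and 16, 32 and 32 without non-aggregate replicate 1, 2 or 3. Without both arrays of replicate 1, 2 or 3 it was 16, 22 and 0; in the last of these fits 393 genes lay higher and 69 lay lower at p below 0.05 without adjustment.

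**Figure D1:**
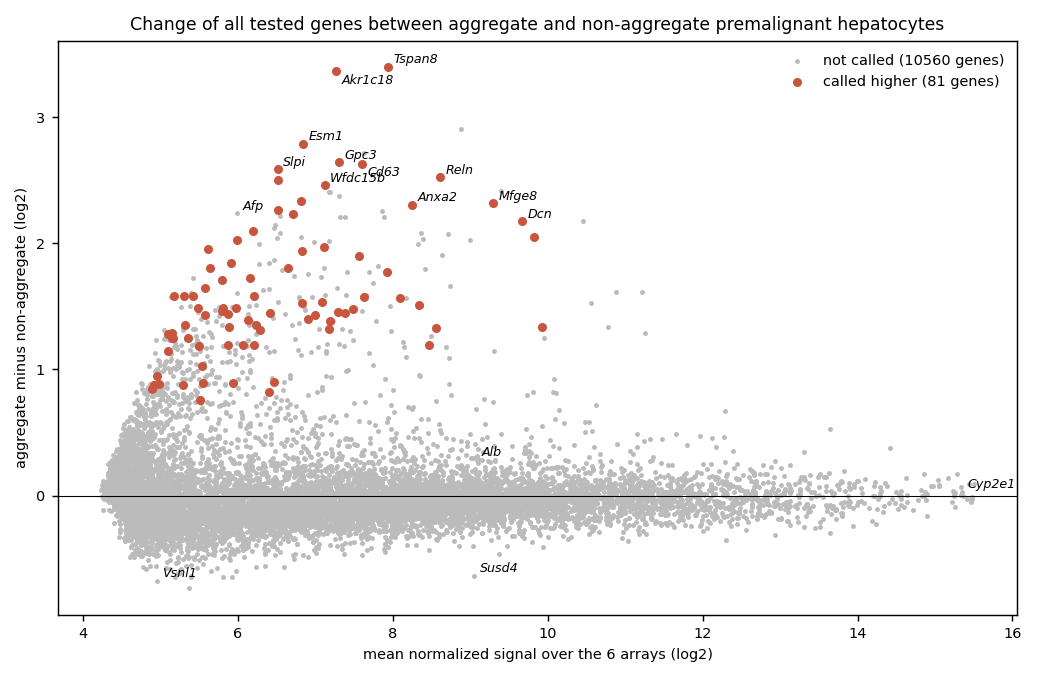
Each point is 1 of the 10641 genes tested, at its mean normalized log2 signal over the 6 arrays (x axis) and its change as aggregate minus non-aggregate on the log2 scale (y axis), with the 81 called genes in red. The called genes lie between 0.76 and 3.40, and no gene below the zero line was called.

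Same-numbered arrays of the 2 groups deviated together. Taking the replicate number as a block, the fit called 90 genes higher (0.846%) and 0 lower over the 12 arrays. Of the 81 genes, 67 passed in that fit too, and 23 further genes passed only there. The 14 that did not were Ramp2, Lyve1, Lrat, Ltbp4, Cdh5, Ptprb, Lbh, Dnase1l3, Cyp4b1, Epb41l2, Eml1, Flt4, Meis2 and Cnrip1, with blocked adjusted p between 0.0523 and 0.0856. The block within the 6 arrays alone called 447 genes higher (4.2%) and 42 lower (0.395%), and 79 of the 81 were among the 447; Lrat and Tnfrsf11b were not (adjusted p 0.0621 and 0.0590). An adjusted p from the fit with the block within the 6 arrays is called paired below, and is given for named genes that passed there but not in the fit over all 12 arrays.

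Tspan8, Akr1c18, Gpc3 and Gldn, of the list of oncofetal and liver tumour markers, were among the 16 largest rises. Tspan8, a tetraspanin of the plasma membrane, read 8.94, 10.24 and 9.71 in aggregates 1, 2 and 3, against 5.28, 7.12 and 6.29 in non-aggregates 1, 2 and 3. The groups lay far apart and both were lowest in replicate 1. Its change was 3.40 (SE 0.43, adjusted p 0.00352 in limma), the largest of the 81. Akr1c18, an aldo-keto reductase that inactivates progesterone, read 8.22, 9.32 and 9.33 in aggregates, against 4.83, 6.43 and 5.50 in non-aggregates. It rose by 3.37 (SE 0.40, adjusted p 0.00315). In bulk RNA, fewer cells of a type and less RNA per cell cannot be told apart, here and in every result that follows.

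Gpc3 encodes glypican 3, a heparan sulphate proteoglycan of fetal liver and HCC. It read 7.99, 9.32 and 8.58 in aggregates, against 5.63, 6.47 and 5.87 in non-aggregates, without overlap, and rose by 2.64 (SE 0.49, adjusted p 0.0308). Gldn, which encodes gliomedin, a protein best known from the nodes of myelinated nerves, read 6.87, 8.53 and 7.88 in aggregates, against 4.83, 5.77 and 5.17 in non-aggregates. Golm1, the Golgi membrane protein GP73 that is measured in serum as an HCC marker, rose by 1.80 (SE 0.26, adjusted p 0.00946), and Ly6d, a lipid-anchored surface protein, by 2.03 (SE 0.21, adjusted p 0.00232). Igdcc4, an immunoglobulin-like surface protein of fetal liver in the mouse, rose by 1.95 (SE 0.32, adjusted p 0.0189), while its other probes gave differences of 0.02 and 0.18.

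Of 17 tested oncofetal and liver tumour marker genes, 6 rose and 0 fell, with a median change of 1.80 against -0.03 over all genes and 0.761% of all genes called. The list was partly drawn up from earlier results on these samples, so its count is not independent evidence of its direction. Afp, alpha-fetoprotein itself, read 6.14, 7.30 and 7.87 in aggregates, against 4.27, 5.07 and 5.26 in non-aggregates. The groups did not overlap, but its difference of 2.24 (SE 0.65) had an adjusted p of 0.177, and a paired p of 0.00638. Spink1, a secreted trypsin inhibitor, differed by 2.71 with an adjusted p of 0.0637, and of 0.000509 with the replicate block. Its levels were 7.32, 9.31 and 10.31 in aggregates, against 5.19, 6.73 and 6.88 in non-aggregates, which overlap in no array. Dlk1 and Igf2, further genes of the fetal liver, differed by 1.26 and 1.19 with adjusted p of 0.94 and 1, and paired p of 0.0226 and 0.0246. The summed level of Kupffer, macrophage, endothelial and stellate marker genes was also higher in aggregates, as given further on, and its part in these rises was not tested.

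**Figure D2:**
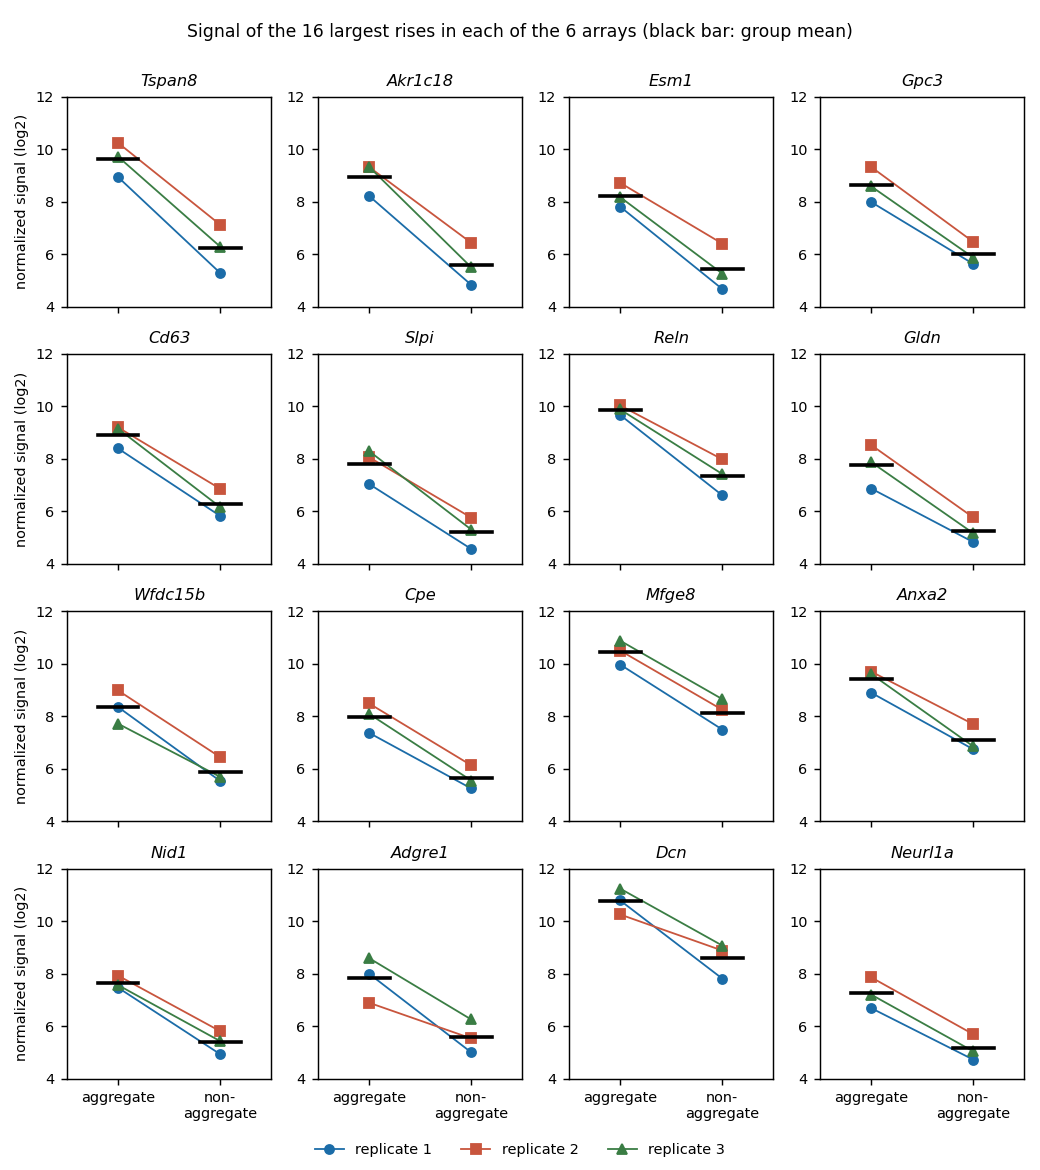
Normalized log2 signal (y axis) of the 16 genes with the largest rises, in 3 aggregate arrays (left) and 3 non-aggregate arrays (right), with lines joining arrays of the same replicate number and black bars at group means. In each panel all 3 aggregates lie above all 3 non-aggregates; Tspan8 spans 8.94 to 10.24 in aggregates and 5.28 to 7.12 in non-aggregates.

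Slpi, the secretory leukocyte protease inhibitor, was another of the 16 leading genes. It read 7.05, 8.07 and 8.30 in aggregates, against 4.57, 5.76 and 5.31 in non-aggregates, a rise of 2.59 (SE 0.35, adjusted p 0.00648). Wfdc15b, of the same family of inhibitors with a whey acidic protein fold, rose by 2.46 (SE 0.49, adjusted p 0.0435), and Wfdc1 by 1.25 (SE 0.25, adjusted p 0.0426). Another Wfdc15b probe gave 1.38. Esm1, the secreted proteoglycan endocan that activated endothelium makes, read 7.81, 8.72 and 8.17 in aggregates, against 4.67, 6.40 and 5.26 in non-aggregates. It was lowest in replicate 1 of both groups, and its change was 2.79 (SE 0.42, adjusted p 0.0119).

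Cpe, carboxypeptidase E, trims peptide hormones in secretory granules. Its levels were 7.37, 8.49 and 8.09 in aggregates, against 5.25, 6.13 and 5.55 in non-aggregates, a rise of 2.34 (SE 0.28, adjusted p 0.00315). Mfge8, a secreted protein that bridges dying cells to phagocytes, read 9.97, 10.50 and 10.88 in aggregates, against 7.49, 8.25 and 8.65 in non-aggregates, and its rise of 2.32 (SE 0.29) had an adjusted p of 0.00352. Nid1, nidogen 1 of basement membranes, read 7.46, 7.92 and 7.56 in aggregates, against 4.93, 5.80 and 5.43 in non-aggregates. The aggregates differed among themselves by less than the non-aggregates did, and the rise was 2.26 (SE 0.29, adjusted p 0.00352), against a difference of 0.42 from another Nid1 probe. Timp3, an inhibitor of matrix metalloproteinases, rose by 1.48 (0.24 by another probe). Ltbp4, which binds latent TGF-beta in the matrix, rose by 1.43, with a blocked adjusted p of 0.0778. Other Ltbp4 probes gave 1.53 and 0.24.

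Among membrane proteins, Cd63 is a tetraspanin of late endosomes and exosomes. It read 8.40, 9.20 and 9.15 in aggregates, against 5.83, 6.87 and 6.17 in non-aggregates, and rose by 2.63 (SE 0.28, adjusted p 0.00248). Anxa2, annexin A2, binds membranes in a calcium-dependent way. Its signal was 8.90, 9.70 and 9.61 in aggregates, against 6.74, 7.70 and 6.85 in non-aggregates, a rise of 2.31 (SE 0.29, adjusted p 0.00352). Its other probe gave 0.10, while the other probes of Cd63 gave 1.52 and 1.97. Of 18 tetraspanins tested, Tspan8 and Cd63 rose, against 0.761% of all genes, and the median was 0.13. Of 16 annexin and S100 genes, Anxa2 alone rose (median 0.09), and of 24 genes of lysosomal proteases and membrane proteins, Cd63 alone (median 0.10), also against 0.761% of all genes. Neurl1a, an E3 ubiquitin ligase, rose by 2.10 (SE 0.43, adjusted p 0.0468) with 6.68, 7.86 and 7.20 in aggregates, against 4.72, 5.69 and 5.04 in non-aggregates. Its other probe gave a difference of 0.06.

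The promoters of the called genes were searched for short motifs, since genes that move together may share them. Of the 81 genes, 59 had a promoter in the RefSeq table of assembly GRCm38.p6, running from 250 bases before to 50 after the start site. The AP-1 letters TGANTCA stood in 6 of the 59 (10.2%), against 6.8% of the promoters of 8627 tested genes. TEAD letters, GGAATG, stood in 15.3% of called and 14.7% of tested promoters, STAT letters, TTCNNNGAA, in 1.7% and 8.3%, and the TATA box, TATAAA, in 10.2% and 9.9%. Both strands were searched, and a match is a description of letters and not a binding site. The promoters below are those that held AP-1 or TEAD letters among the 16 largest rises, with the match in capitals; it begins at position -95 of Anxa2, -72 of Gldn and -165 of Nid1 relative to the start site. The TATAAA of the Anxa2 promoter, in lower case, lies after its AP-1 letters and shares no base with them.
Anxa2, chr9:69453433-69453732, plus strand, AP-1 letters: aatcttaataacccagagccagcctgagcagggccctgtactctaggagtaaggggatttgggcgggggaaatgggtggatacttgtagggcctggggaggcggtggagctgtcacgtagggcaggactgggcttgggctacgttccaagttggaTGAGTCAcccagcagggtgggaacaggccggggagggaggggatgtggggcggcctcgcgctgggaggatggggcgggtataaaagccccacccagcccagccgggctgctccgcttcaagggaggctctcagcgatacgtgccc
Gldn, chr9:54286236-54286535, plus strand, AP-1 letters: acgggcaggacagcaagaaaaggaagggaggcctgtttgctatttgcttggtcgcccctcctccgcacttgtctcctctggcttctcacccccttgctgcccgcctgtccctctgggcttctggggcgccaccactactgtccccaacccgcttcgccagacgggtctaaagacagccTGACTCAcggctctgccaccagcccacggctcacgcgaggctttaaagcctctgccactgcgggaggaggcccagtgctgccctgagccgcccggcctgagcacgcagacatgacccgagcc
Nid1, chr13:13437352-13437651, plus strand, TEAD letters: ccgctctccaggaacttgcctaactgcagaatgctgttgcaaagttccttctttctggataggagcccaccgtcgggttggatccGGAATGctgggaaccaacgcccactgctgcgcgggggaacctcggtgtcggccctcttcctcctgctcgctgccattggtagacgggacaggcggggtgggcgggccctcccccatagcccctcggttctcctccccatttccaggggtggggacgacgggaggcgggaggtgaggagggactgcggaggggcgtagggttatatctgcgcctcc

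Lists of marker genes of the cells that line and fill the sinusoids held further calls. For endothelium, 7 of 28 tested genes rose and 0 fell, against 0.761% of all genes, and the median change was 1.30. All 28 differences were positive, against 4470 of all 10641 genes. The 28 include Kdr, Vwf and Cd34, whose signal passed detection on at most 1 aggregate array and on no non-aggregate array. In 24 of the 28 all aggregates lay above all non-aggregates, against 9.44% of all genes. Their summed signal on the linear scale was 8009 to 11990 in aggregates, against 3378 to 4497 in non-aggregates. The 7 genes were Ramp2 (1.57), Lyve1 (1.54), Cdh5 (1.39), Sox18 (1.34), Ptprb (1.33), Dnase1l3 (1.20) and Flt4 (0.95). Ramp2 is a co-receptor for adrenomedullin, Lyve1 a hyaluronan receptor of sinusoidal endothelium, and Cdh5 the cadherin of endothelial junctions. With the replicate block over 12 arrays 1 of the 28 passed, against 0.846% of all genes: Sox18, an endothelial transcription factor, with an adjusted p of 0.0437. With the block within the 6 arrays 21 of the 28 passed, against 4.2% of all genes.

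Stab2, a scavenger receptor of sinusoidal endothelium, read 8.36, 7.54 and 7.84 in aggregates, against 6.92, 6.90 and 6.94 in non-aggregates, and its difference of 0.99 had an adjusted p of 0.104 and a paired p of 0.0390. Pecam1, CD31, differed by 1.18 with an adjusted p of 0.0689 and a paired p of 0.0125. Kdr, a receptor of vascular endothelial growth factor, and Vwf, a marker of vessels other than sinusoids, were detected on 1 aggregate array and on no non-aggregate array. Cd34, another such marker, was detected on no array of either group, so no change is given for these genes. Other called genes known from endothelium stood outside the list. Robo4, a guidance receptor of vessels, rose by 1.51 (SE 0.26, adjusted p 0.0217), Cd300lg, a mucin-like endothelial receptor, by 1.38 (SE 0.27, adjusted p 0.0435; 0.41 by another probe), and Ednrb, the endothelin receptor type B, by 1.94 (SE 0.27, adjusted p 0.00669). Mrc1, the mannose receptor of sinusoidal endothelium and macrophages, rose by 1.57 (SE 0.26, adjusted p 0.0199). These genes were picked from the called genes after their values were seen.

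Of 12 genes of quiescent stellate cells 3 rose, against 0.761% of all genes, with a list median of 1.01. With the block 2 passed over 12 arrays (0.846% of all genes) and 4 within the 6 arrays (4.2%). Reln, reelin, read 9.68, 10.04 and 9.88 in aggregates, against 6.62, 7.99 and 7.43 in non-aggregates, a rise of 2.52 (SE 0.43, adjusted p 0.0199). Dcn, the collagen-binding proteoglycan decorin, read 10.78, 10.25 and 11.23 in aggregates, against 7.81, 8.88 and 9.07 in non-aggregates, and rose by 2.17 (SE 0.42, adjusted p 0.0377). Lrat, which esterifies retinol for storage, was 1.43 higher (adjusted p 0.0406, and 0.0616 with the block). Another probe of Reln gave a difference of -0.10, and other probes of Dcn gave 1.98 and 0.84. Des, the intermediate filament desmin, differed by 0.27 (adjusted p 1). The summed signal of the list was 8584 to 10180 in aggregates, against 4777 to 7376 in non-aggregates, so the ranges were apart.

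Genes of activated stellate cells and fibrous matrix gave no call: 0 of 17 passed and the median was 0.63, while 6 passed with the block within the 6 arrays (4.2% of all genes). Sparc, a collagen-binding matrix protein, differed by 1.59 with an adjusted p of 0.0519 (paired p 0.0208). Col5a1, detected on no non-aggregate array, had a lower bound of 1.61-fold for its higher mean in aggregates (adjusted p 0.0696, paired p 0.0215). Acta2, the smooth muscle actin of activated stellate cells, was likewise undetected in non-aggregates and at least 1.42-fold higher in aggregates (adjusted p 0.507, paired p 0.0395). Of the fibrillar collagen genes, Col1a1 was detected on no array of either group, and Col1a2 on 1 aggregate array and no non-aggregate array, so no change is given. The summed signal was 3516 to 4391 in aggregates, against 2700 to 3096 in non-aggregates.

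Of 12 Kupffer cell genes, Adgre1 and Marco rose, against 0.761% of all genes, and the list median was 1.06. With the replicate block over 12 arrays 5 passed (0.846% of all genes), now with Vsig4, Cd163 and Csf1r, and with the block within the 6 arrays 8 passed (4.2%). Adgre1, the macrophage antigen F4/80, read 7.99, 6.89 and 8.59 in aggregates, against 5.0, 5.53 and 6.25 in non-aggregates. Aggregate 2 was the lowest of its group and replicate 3 the highest in both groups; the change was 2.23 (SE 0.45, adjusted p 0.0449), and other probes gave 1.82 and 0.28. Marco, a scavenger receptor detected on no non-aggregate array, was at least 1.46-fold higher (adjusted p 0.0295). Clec4f, a lectin confined to Kupffer cells in the mouse liver, read 7.73, 6.81 and 8.80 in aggregates, against 5.59, 5.60 and 6.88 in non-aggregates, with an adjusted p of 0.185 and a paired p of 0.0176. The summed signal of the list was 4780 to 7800 in aggregates, against 2951 to 4654 in non-aggregates.

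The 18 general macrophage genes had 0 calls and a median of 1.28, with 14 higher at an unadjusted p below 0.05, against 609 of all 10641 genes. In 14 all aggregates lay above all non-aggregates, against 9.44% of all genes. C1qc and C1qb, chains of complement C1q that macrophages make, differed by 2.37 and 2.21 with adjusted p of 0.0519 and 0.0561, which became 0.0120 and 0.0163 with the replicate block over 12 arrays. With it 3 of the 18 genes passed, Lyz2 being the other, and with the block within the 6 arrays 13 passed, against 4.2% of all genes. C1qc read 8.67, 7.45 and 9.35 in aggregates, against 5.50, 5.76 and 7.09 in non-aggregates, lowest in replicate 2 among aggregates. The summed signal was 3459 to 9110 in aggregates, against 1187 to 3433 in non-aggregates. Ptprc (CD45), Itgam, Ccr2 and Cybb were below the detection filter. The 7 MHC class II genes had 0 calls and a median of 1.49, and 3 passed with the block within the 6 arrays (4.2% of all genes). H2-Ab1, a class II chain, and Cd74, the invariant chain, differed by 2.05 and 2.21 (adjusted p 0.0580 and 0.0613, paired p 0.0149 and 0.0239). Their summed signal was 569.5 to 1565 in aggregates, against 263.7 to 281.6 in non-aggregates.

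Genes of other white cells and of ducts were mostly below the detection filter. Of 14 T and NK cell genes on the array 5 were tested, with 0 calls and a median of 0.07; of 6 B cell genes 2 were tested, and of 10 neutrophil genes 3, with medians of 0.13 and 0.18. Of the bile duct genes only Sox9, a transcription factor of duct and progenitor cells, was tested. It read 8.85, 8.07 and 7.94 in aggregates, against 8.54, 7.35 and 7.48 in non-aggregates, and the groups overlapped (adjusted p 1). Epcam and Krt19, markers of ducts and of liver progenitors, were below the detection filter. Cd44, a hyaluronan receptor, read 5.60, 4.76 and 5.71 in aggregates, against 4.92, 4.61 and 4.81 in non-aggregates; the groups overlapped and the adjusted p was 0.72. None of 10 progenitor-associated genes was called, and 3 were with the block within the 6 arrays, against 4.2% of all genes. Kit, the stem cell factor receptor, was nearest with 1.11 (adjusted p 0.0543, paired p 0.0238).

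**Figure D3:**
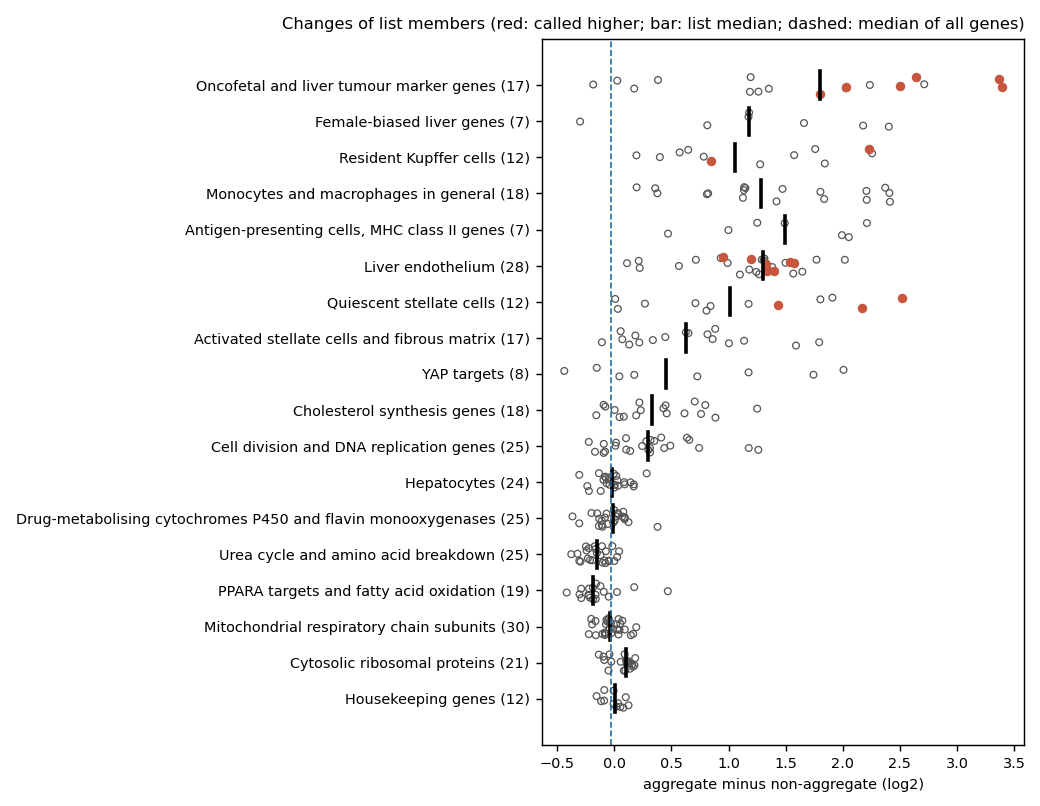
Changes as aggregate minus non-aggregate on the log2 scale (x axis) of the tested members of 18 gene lists (rows, number tested in brackets), with called genes in red, black bars at list medians and a dashed line at the median of all genes, -0.03. The oncofetal, macrophage, endothelial and quiescent stellate lists spread to the right, with medians of 1.80, 1.28, 1.30 and 1.01, while the hepatocyte list keeps within -0.31 and 0.28.

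Of the 81 genes 57 stood in no list (median change 1.45), and those named here were picked after their values were seen. Tmsb4x and Tmsb10, the beta-thymosins that hold actin monomers, were the 2 of 20 tested genes of the cytoskeleton list to rise, against 0.761% of all genes. Tmsb4x read 11.01, 10.24 and 11.28 in aggregates, against 8.53, 8.80 and 9.06 in non-aggregates, a rise of 2.05 (SE 0.29, adjusted p 0.00692). Tmsb10 rose by 1.97 (SE 0.20, adjusted p 0.00232). Dpysl2, a tubulin-binding protein, rose by 1.45 with an SE of 0.17, and Tagln2, an actin-binding relative of transgelin, by 1.45 with an SE of 0.24. Sirpa, the myeloid receptor for CD47, rose by 1.90 (SE 0.32, adjusted p 0.0199; 0.38 by another probe). Tnfrsf21, death receptor 6, rose by 1.80 (SE 0.28, adjusted p 0.0158; 0.10 by another probe), and App, the amyloid precursor protein, by 1.33 (SE 0.22, adjusted p 0.0199; 1.08 and 0.23 by other probes). Tnfsfm13, a readthrough of neighbouring tumour necrosis factor ligand genes, rose by 1.77 (0.30 by another probe), and its probe may read those neighbours. Ear3 (1.73) and Gbp2b (1.49) belong to families of near-identical genes whose copies their probes may read.

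For 10 of the 81 genes the signal passed detection on no non-aggregate array and on all aggregate arrays, and the change is then a bound. Of all 10641 genes tested, 878 passed detection on no non-aggregate array, whatever their detection in aggregates. Pkm, the pyruvate kinase of most tissues other than mature hepatocytes, was at least 2.73-fold higher (adjusted p 0.00315). It was also the 1 call among 16 tested genes of glycolysis, against 0.761% of all genes, and the list median was -0.07. Mtmr11, a myotubularin relative, was at least 2.52-fold higher (adjusted p 0.00814), with differences of 0.05, 0.45 and 0.18 from its other probes. Prom2, prominin 2 of membrane protrusions, was at least 2.29-fold higher (adjusted p 0.00315), although a second Prom2 probe gave a difference of -0.14. Tnfrsf11b, osteoprotegerin, was at least 2.04-fold higher (adjusted p 0.0203), and Gltp, a glycolipid transfer protein, at least 2.02-fold (adjusted p 0.00352). Cxcl13, which attracts B cells, was at least 1.97-fold higher (adjusted p 0.0251). It was the 1 call among 17 chemokine genes, against 0.761% of all genes. Lxn, a carboxypeptidase inhibitor, Flt4, a receptor of vascular endothelial growth factors, Tnfaip8 and Marco had bounds of 1.88, 1.59, 1.51 and 1.46.

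The functions of hepatocytes themselves showed no called gene. Of 24 hepatocyte marker genes 0 passed, with changes between -0.31 and 0.28 and a median of -0.02. The Alb probe, for albumin, read 9.13, 9.37 and 9.16 in aggregates, against 8.67, 9.0 and 9.15 in non-aggregates (adjusted p 1). It read far below Hpx of the same list, whose means were 15.37 in aggregates and 15.20 in non-aggregates. How well the Alb probe measures albumin RNA was not tested. Hnf4a, the nuclear receptor that maintains hepatocyte identity, and the cytochrome Cyp2e1 differed by -0.01 and 0.03. The summed signal of the list was 440200 to 462000 in aggregates, against 434100 to 444900 in non-aggregates.

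No gene passed among 25 of drug-metabolising P450 and flavin monooxygenases (median -0.01), 25 of the urea cycle and amino acid breakdown (-0.15), 19 of fatty acid oxidation (-0.19), 20 of bile acid handling (-0.07), 18 pericentral (-0.10) and 12 periportal genes (0.01). For urea cycle and amino acid genes 2 of 25 differences were positive, and for all genes 4470 of 10641 were. The lowest were Nags, which makes the activator of the urea cycle's first enzyme, at -0.38 (adjusted p 0.849), and Hadh of fatty acid oxidation at -0.42 (adjusted p 0.644). Cholesterol synthesis genes had a median of 0.33 with 15 of 18 differences positive and 0 calls. With the block within the 6 arrays 6 passed, against 4.2% of all genes. Sqle, squalene epoxidase, differed by 1.25 (adjusted p 0.313, paired p 0.0292). Complement and coagulation, respiratory chain, ribosomal and housekeeping genes had medians of 0.03, -0.04, 0.10 and 0.01 with 0 calls.

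The lists that follow, of cell division, of stress and of inflammatory signalling, held 0 called genes. Among 25 genes of cell division and DNA replication the median was 0.30; Ccnd1, cyclin D1, read 8.70, 9.35 and 9.76 in aggregates, against 7.96, 8.15 and 8.17 in non-aggregates, and its difference of 1.18 had an adjusted p of 0.0626 and a paired p of 0.0279. Il6, interleukin 6, was below the detection filter, and 29 genes of its signalling and of the acute phase had a median of -0.02. Lcn2, a lipocalin of the acute phase, differed by 2.03 (adjusted p 0.292, paired p 0.00878) and Il1rn, the interleukin 1 receptor antagonist, by 1.5 (adjusted p 0.0637, paired p 0.0131). Among NF-kB targets (median 0.20) the adhesion molecule Vcam1 differed by 2.04, with an adjusted p of 0.0661 and of 0.0310 with the block. Among YAP targets (median 0.45) the receptor kinase Axl differed by 2.01, with an adjusted p of 0.0645 and of 0.0337 with the block. Interferon-stimulated, p53, NRF2, endoplasmic reticulum stress and immediate early genes had medians of 0.09, 0.00, 0.13, 0.07 and -0.04.

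Female-biased liver genes varied with the replicate number. In the 7 tested, 0 were called and the median was 1.18. Cyp2b13 read 6.64, 9.59 and 8.91 in aggregates, against 4.40, 7.38 and 6.15 in non-aggregates, with an adjusted p of 0.209 that became 0.000530 with the block. Cyp2a4 differed by 2.18 with an adjusted p of 0.110, and of 0.0179 with the block. Both were lowest in replicate 1 of both groups, and probes of these P450 families may read copies. The 16 male-biased genes had a median of -0.11 and 0 calls.

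**Figure D4:**
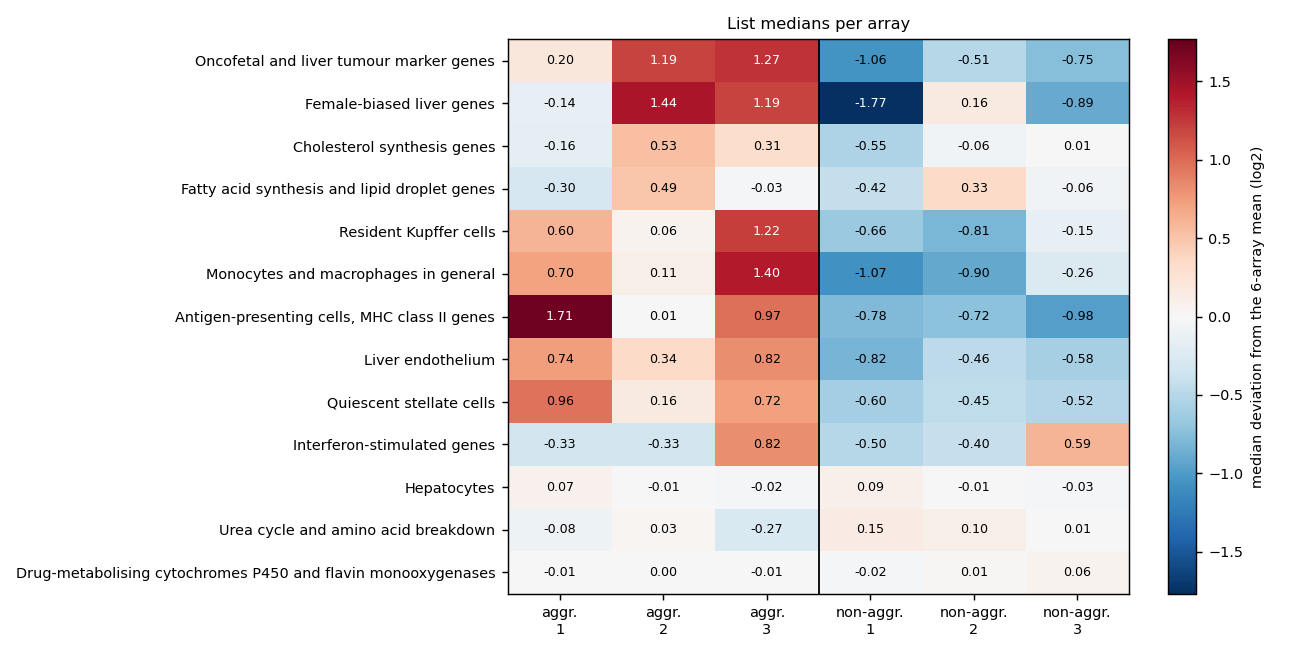
Median deviation of each list's genes from their mean over the 6 arrays, on the log2 scale (colour and printed value), for 3 aggregate arrays (left of the line) and 3 non-aggregate arrays (right). The oncofetal list reads 0.20, 1.19 and 1.27 in aggregates and -1.06, -0.51 and -0.75 in non-aggregates, the macrophage list reads 0.70, 0.11 and 1.40 and then -1.07, -0.90 and -0.26, and interferon-stimulated genes are high in replicate 3 of both groups.

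The called genes did not follow 1 pattern over the 3 aggregates. Of the 81 genes, 13 were highest in aggregate 1, 19 in aggregate 2 and 49 in aggregate 3, and 67 were lowest in non-aggregate 1 among non-aggregates. Genes with most signal in aggregate 2, relative to the mean of aggregates 1 and 3, were Gldn (1.15 above), Igdcc4 (1.09), Gpc3 (1.04), Wfdc15b (0.95), Neurl1a (0.91) and Tspan8 (0.91). Those with least were Adgre1 (-1.40), Ear3 (-1.10), Cyth4 (-0.95), Cxcl13 (-0.91), Tmsb4x (-0.91) and Lrat (-0.83). Macrophage, MHC class II and quiescent stellate list medians were also lowest in aggregate 2 of the 3 aggregates, at 0.11, 0.01 and 0.16. The same held for the Kupffer and endothelial list medians, at 0.06 and 0.34. Reln of the quiescent stellate list was instead highest in aggregate 2 (0.26 above the mean of aggregates 1 and 3). The activated stellate list had 0.42, 0.11 and 0.10 in aggregates 1, 2 and 3. The oncofetal list had 0.20, 1.19 and 1.27 in aggregates 1, 2 and 3.

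The 3 same-numbered pairs gave like differences. Over all genes, the pair differences of replicates 1 and 2 had a Pearson r of 0.61, those of 1 and 3 of 0.72 and those of 2 and 3 of 0.63, given as a description since genes are not independent. Genes over 2-fold higher in the aggregate numbered 333, 185 and 384 in pairs 1, 2 and 3, and genes over 2-fold lower 4, 2 and 8. In all 3 pairs 122 genes were over 2-fold higher, 52 of them among the 81, and 0 were over 2-fold lower.

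None of the lower differences passed the adjusted threshold in the fit over all 12 arrays, and the 6 with the smallest p are given as values. Mfsd9, a predicted transporter, read 4.98, 5.0 and 5.22 in aggregates, against 5.79, 5.73 and 5.63 in non-aggregates (-0.65, adjusted p 0.0580, paired p 0.0381). Vsnl1, a calcium sensor of neurons, was detected on no aggregate array and on all non-aggregate arrays, with 4.56, 4.65 and 4.61 in aggregates, against 5.16, 5.27 and 5.43 in non-aggregates (adjusted p 0.0661, paired p 0.0215). In the fit of the 6 arrays without the block both passed, at 0.0380 and 0.0321. The groups of Mfsd9 and of Vsnl1 were apart, at levels close to the low end of the scale. Uhmk1, Miip, Ccdc171 and Spi1 differed by -0.58, -0.50, -0.74 and -0.64 with adjusted p between 0.0690 and 0.135. Of these, Miip and Spi1 had paired p of 0.0369 and 0.0400. Spi1, a transcription factor of myeloid cells, stood outside the list of general macrophage genes, whose 18 tested members all had positive differences. It read 5.76, 5.63 and 5.42 in aggregates, against 6.43, 6.04 and 6.27 in non-aggregates. With the block within the 6 arrays, Susd4, a complement inhibitor with male-biased expression in mouse liver, was among the 42 lower genes at -0.64 (adjusted p 0.0215 there and 1 in the fit of all arrays).

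The 81 genes were also read in the comparison of HCC with normal hepatocytes, which lies on the other chip and shares no sample with the first. There 2451 of all genes (23%) were higher and 2767 (26%) lower in HCC. Of the 81, 78 (96.3%) were called higher in HCC, 0 lower and 3 neither; the 78 were 3.18% of the genes higher in HCC. The 3 were Marco, Gbp2b and Wfdc1, with HCC changes of 0.11, 0.12 and 0.47 (adjusted p 0.584, 0.758 and 0.134). Over the 81 genes the change in aggregates and the change in HCC had a Spearman rho of 0.72, as a description. Both comparisons came from the same fit over 12 arrays, which shares each gene's estimate of spread between them. Each gene's probe was also chosen by its mean over all 12 arrays, HCC included. The overlap of calls is therefore not an overlap of independent tests.

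Most changes were smaller in aggregates than in HCC. The difference of the 2 changes was tested in the same fit and was called for 46 of the 81 genes, against 20.8% of all genes, with 44 smaller and 2 larger in aggregates. The 81 genes had been chosen by the first of these changes, and the changes were measured on different chips. Tspan8 changed by 3.40 in aggregates over non-aggregates, against 7.60 in HCC over normal hepatocytes, a difference of -4.20 (adjusted p 0.000854). Gpc3 changed by 2.64 in aggregates, against 7.59 in HCC, and Ly6d by 2.03 in aggregates, against 7.09 in HCC, with differences of -4.95 and -5.07 (adjusted p 0.000695 and 5.50e-06). Gbp2b, an interferon-induced GTPase, and Marco were the 2 with larger changes in aggregates, by 1.37 and 0.73 (adjusted p 0.0345 and 0.0338). In HCC and normal hepatocytes Gbp2b read 4.55 and 4.43, and Marco 4.54 and 4.43. These levels are close to the low end of the scale, so the HCC changes of both genes are poorly measured. Adgre1 changed by 2.23 in aggregates and 2.23 in HCC, and Dcn by 2.17 in aggregates and 1.84 in HCC, with differences of -0.01 and 0.34 that were not called (adjusted p 0.996 and 0.726).

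**Figure D5:**
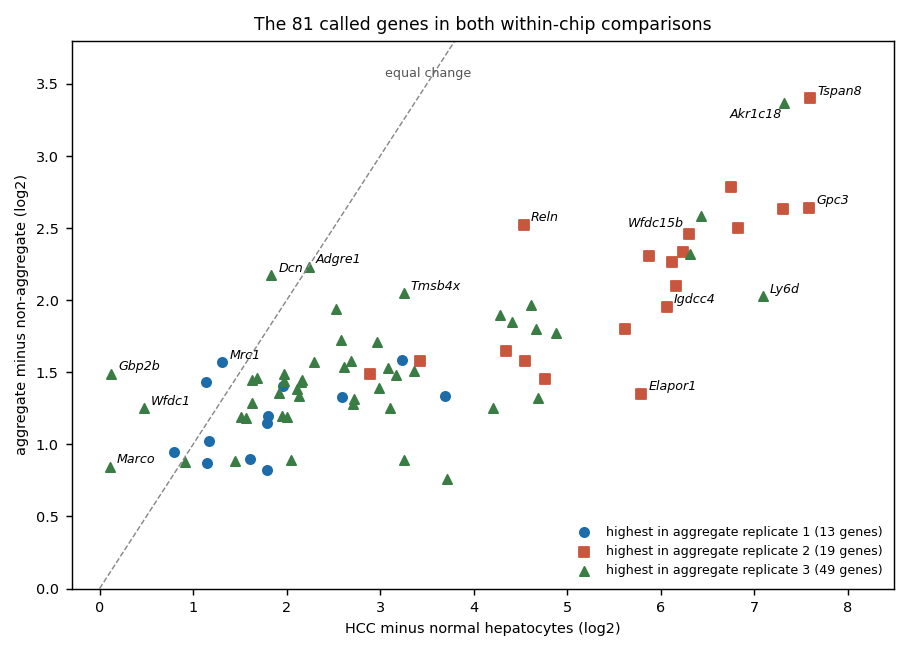
The 81 called genes by their change as HCC minus normal hepatocytes (x axis) and as aggregate minus non-aggregate (y axis), both on the log2 scale, with symbols for the aggregate array in which each gene was highest and a dashed line of equal change. The 19 genes highest in aggregate 2 lie between 2.89 and 7.60 on the x axis with a median of 6.06, and the 13 highest in aggregate 1 between 0.79 and 3.69 with a median of 1.79.

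The change in HCC went with the aggregate array that read highest. The median HCC change was 6.06 for the 19 genes highest in aggregate 2, 2.58 for the 49 highest in aggregate 3 and 1.79 for the 13 highest in aggregate 1. Over the 81 genes the excess of aggregate 2 over aggregates 1 and 3 had a Spearman rho of 0.63 with the HCC change, and the excess of non-aggregate 2 over non-aggregates 1 and 3 had one of 0.49. These values describe 81 genes on 6 arrays that share a chip, and carry no test.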

How the data were processed

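Per the file headers, the first deposited table holds each probe's mean bead signal as a linear intensity, without background subtraction (lowest 30.6), and a detection p-value. How the second deposited table's normalized intensity was made is not stated. All 12 arrays entered the fit, 3 per group, and 0 data columns stayed unmapped. The signal was corrected with normexp from the detection p-values (offset 16), quantile normalized and taken to log2 (neqc, limma 3.58.1, R 4.3.3). Probes detected at p below 0.05 on at least 3 arrays were kept (19670), and a gene was read by its brightest probe. Names came from the platform annotation, updated through RefSeq GRCm38.p6: of 45281 probes 34885 had 1 gene, 18 several and 10378 none listed; 34807 IDs matched. Genes were tested with lmFit and eBayes (2-sided) on a mean per group, with Benjamini-Hochberg adjustment over 10641 genes. A gene undetected on all arrays of 1 group gets a bound: the brighter mean over, per array, the higher of the lowest detected signal and its own. The bound is a ratio of means and carries no sampling error.

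Replicate numbers are shared between the groups. Same-numbered arrays deviated from their group means together (r = 0.71, 0.54 and 0.64), so the numbers were taken as pairs. Such arrays are neighbours on the chip, and common origin and neighbouring position cannot be told apart. Of 1012 entries in 48 gene lists (13 of cell types, 35 of pathways), 926 were on the array. Members and lists were chosen with earlier results of these data known. Genes named are the called ones, with values per array for the 16 largest rises; the 6 smallest p among lower differences; called members of lists or otherwise the 2 with smallest p; and a panel of known liver and cell type genes. A few further genes were picked after their values were seen. Figures were drawn with Python 3.11.15 and matplotlib 3.10.9.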

Additional observations from a re-analysis of the deposited data

Results flagged for a closer look

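Probes that the platform annotation ties to no gene were left out of the comparison. Of 2911 such probes that passed the detection filter, 11 were higher in aggregates and 0 lower at an adjusted p below 0.05. This limma fit and its adjustment ran over all 19670 probes kept. The share is smaller than the 0.761% of genes that rose, whose adjustment ran over 10641 genes. No comparison of genes used these probes. Their genes are not known here.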

How the results depend on the processing

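Genes higher in aggregates numbered 81, and genes lower 0. The count of higher genes was 26 without background correction, 215 with median scaling, 153 with cyclic loess, 40 with the deposited normalized values, 27 without a detection filter, and 351 with array weights, which also called 28 lower. With only the 6 arrays it was 222 (3 lower), and 447 (42 lower) with the replicate block as well; the replicate block over 12 arrays gave 90. Leaving out 1 array gave 16 to 138 higher and 0 to 1 lower, and leaving out replicate 1, 2 or 3 of both groups, chosen after seeing the data, gave 16, 22 and 0. The cause of these shifts was not tested. Fits that left arrays out also held fewer arrays, yet without aggregate replicate 2 the count was higher, at 138. The block over 12 arrays ended 14 of the 81 calls. Akr1c18, Anxa2, Cd63, Cpe, Dpysl2, Ly6d, Prom2, Slpi, Tmsb10 and Tspan8 were called under 22 of 23 alternatives. The exception was leaving out replicate 3 of both groups. Among the 23, requiring a log2 change of at least 1 reused the main fit and could not end the calls of these genes. Testing every probe by itself kept the smallest p per gene, so weaker probes did not count there. In all 6 fits without 1 array, 16 genes were called. Signs turned for Cyp2e1 with median scaling (-0.0607) and for Hnf4a with cyclic loess (5e-04), the deposited values (0.0169), without replicate 3 of both groups (0.0744), and in 3 of the 6 fits without 1 array (range -0.187 to 0.136), none called. Of the 81 genes 34 had other probes, 46 in all: only 8 passed the test, many of the others lay near 0 (Igdcc4 0.02, Neurl1a 0.06, Anxa2 0.10), and 2, of Prom2 and Reln, were negative. Signal over background limits 10 of the 81 genes, undetected on all non-aggregate arrays, to bounds, and 18 more were detected on 1 or 2 of these.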
